A study of Mus musculus with 12 samples.

Results

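The interaction of Kcnip3 loss with the 5xFAD transgenes asks of each gene whether 5xFAD changed its level by a different amount when Kcnip3 was missing. It was computed on the log2 scale as the Kcnip3 KO-5xFAD minus Kcnip3 KO difference, less the 5xFAD minus WT difference. All 12 libraries of the series entered it, 3 from each of the 4 genotypes, and 15905 of the 55385 genes in the count table had enough counts to be tested. WT mice carried the intact Kcnip3 gene and no transgene, Kcnip3 KO mice lacked Kcnip3 (Kcnip3 -/-), 5xFAD mice carried the transgenes with Kcnip3 intact, and Kcnip3 KO-5xFAD mice (5XFAD/Kcnip3 -/-) combined both. The mice were adults, and RNA came from freshly dissected hippocampus, with the other hemisphere of the same animals going to proteomics. Neither strain, sex nor age in months was used here, and the labels do not say whether the libraries of a genotype came from separate animals, so p-values measure only the spread between these samples.

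Kcnip3 encodes KChIP3, also called DREAM or calsenilin, a calcium-binding protein with several known roles. In the nucleus it binds a DNA element called DRE and represses genes until calcium releases it, and at the membrane it is a subunit of Kv4 potassium channels. The 5xFAD transgenes include mutant human APP and are under the control of Thy1 sequences, which act mainly in neurons, and the mice develop amyloid plaques surrounded by reactive microglia and astrocytes. A positive interaction means that the 5xFAD effect was higher without Kcnip3. It can arise from a transgene-linked fall that was absent without Kcnip3 or from a rise that was larger there, so both effects are given beside it. Levels are TMM-scaled counts per 1000000 (CPM), and log2 differences carry SE or 95% intervals from edgeR's quasi-likelihood fit.

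The libraries held 7664407 to 11310714 counts. Kcnip3 read 158 to 162 CPM with the gene intact and no transgene, 138 to 156 CPM in 5xFAD, 63.4, 71.4 and 125 CPM in the Kcnip3 KO libraries and 68.7 to 84.9 CPM when both were combined. Reads of Kcnip3 thus remained in every knockout library, and "without Kcnip3" refers here to the labelled genotype. Whether these reads yield any protein was not tested. Thy1, whose sequences drive the transgenes, went against the labels in a pair of libraries: it stood at 2280.0 CPM in the library labelled WT 3 (747 and 887 in the other WT libraries) and at 926 CPM in the library labelled Kcnip3 KO-5xFAD 2 (2590.0 and 3380.0 in its group). Cst7, a gene of plaque-associated microglia, showed the same: WT 3 held 26.5 CPM of it, Kcnip3 KO-5xFAD 2 held 1 CPM. The fit was therefore also made without these libraries, on 10 libraries, and its values stand beside those from 12. All groups otherwise stayed as labelled. Where every library of a group held 3 counts of a gene or fewer, no fold is given. Defining markers of the hippocampus were present in every library, with a sum of 450.0 to 759 CPM over 15 dentate granule neuron genes and 1570.0 to 2140.0 CPM over 19 genes of the CA fields. Tissue from around the hippocampus varied more: 17 choroid plexus genes summed to 149, 258, 425 and 468 CPM in WT 3, 5xFAD 2, Kcnip3 KO-5xFAD 1 and Kcnip3 KO-5xFAD 2 and to 3180.0 to 9230.0 CPM in the other libraries. Kcnip3 KO-5xFAD 1 also held 382 CPM of 9 transcripts of the olfactory bulb, chosen after their values were seen, against 49.5 to 142 CPM elsewhere. In bulk tissue, more cells of a type and more RNA per cell cannot be told apart.

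No gene passed the test for an interaction with all 12 libraries. The edgeR test called 0 genes higher and 0 lower, a background of 0.0% of those tested, and the smallest adjusted p was 0.43. At an unadjusted p under 0.05 there were 553 higher (3.48%) and 283 lower (1.78%) genes, or 5.26% of those tested. DESeq2 called 2 higher (Fabp7 and Nr4a1) and 1 lower (Gm12751), and limma-voom called 0 in either direction. With 10 libraries 1 gene passed, Fabp7, a background of 0.00622%, while the next smallest adjusted p was 0.991, and 395 higher (2.46%) and 160 lower (0.995%) genes, together 3.45%, had an unadjusted p under 0.05. With no interaction in any gene, a share of about 0.05 would fall under that p. The share with 12 libraries was near this and the share with 10 below it. Genes named further on for this p are therefore described, not called. The contrast has a wider error than the effects it compares, with a median SE of 0.236 per gene against 0.167 for 5xFAD minus WT.

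The 5xFAD effects themselves were counted differently by the 2 sets of libraries. With all 12, 5xFAD minus WT called 304 higher (1.91%) and 258 lower (1.62%) genes, 3.53% of those tested, and Kcnip3 KO-5xFAD minus Kcnip3 KO called 0 by edgeR, with 969 higher (6.09%) and 688 lower (4.33%) genes at an unadjusted p under 0.05, together 10.4%, and with 110 higher and 23 lower genes called by DESeq2. With 10 libraries the counts were 196 higher (1.22%) and 13 lower (0.0809%) with Kcnip3 and 208 higher (1.29%) and 1 lower (0.00622%) without it, 1.3% of the genes tested in either case. Of the higher genes, 144 were called in both, which is 73.5% of the first list and 69.2% of the second. Over these shared genes the median 5xFAD effect was 1.62 with Kcnip3 and 1.55 without it, and their median interaction was -0.09. The shared genes were picked for passing in both backgrounds, which favours similar effects, so these medians describe them and test nothing. The fit of 10 libraries leaves out the pair whose transgene markers go against their labels. Its calls and their overlap are therefore not independent of that choice. Across all genes tested with 10 libraries, the 5xFAD effects with and without Kcnip3 had a Pearson's r of 0.43 and a Spearman's rho of 0.36 (0.39 and 0.43 with 12). Genes are not independent replicates, so these correlations only describe the estimates.

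**Figure D1:**
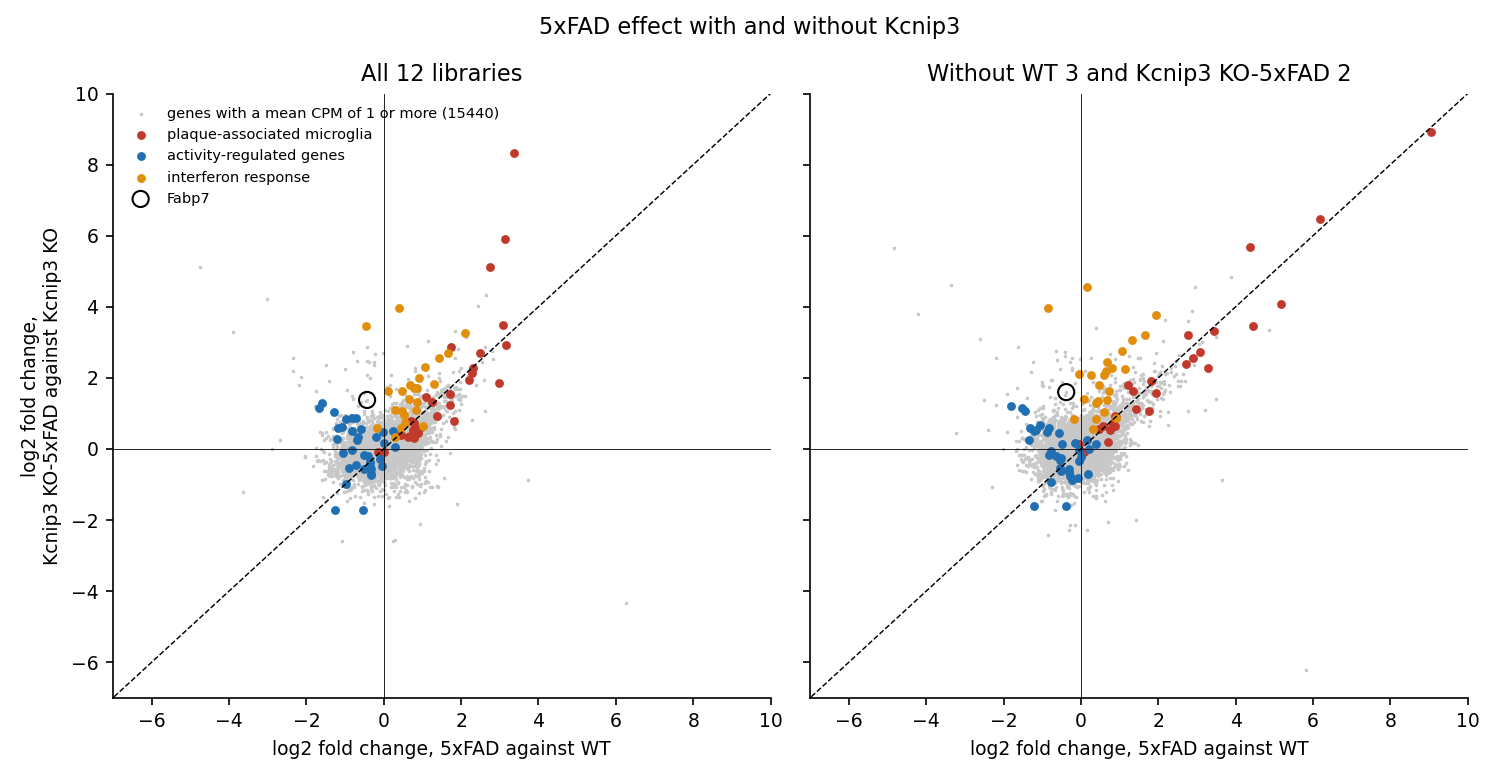
5xFAD effect with Kcnip3 (horizontal axis, log2 fold change of 5xFAD against WT) and without it (vertical axis, log2 fold change of Kcnip3 KO-5xFAD against Kcnip3 KO), with all 12 libraries on the left and with 10 on the right. Each grey point is a gene with a mean of at least 1 CPM, coloured points are members of the lists named in the key, and a gene on the dashed line has no interaction, and the farthest points include genes at 3 counts or fewer in a whole group, whose fitted values are no measured folds; with 10 libraries the genes of plaque-associated microglia lie along that line (median interaction -0.15), interferon genes lie mostly above it (median 1.40) and Fabp7 lies at -0.38 and 1.60.

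Most genes with an unadjusted interaction p under 0.05 moved in opposite directions in the 2 backgrounds. Of the 553 positive ones, 379 (68.5%) had 5xFAD effects of opposite sign, 168 had effects of the same sign that were smaller without Kcnip3, and 6 had effects of the same sign that were larger there. Of the 283 negative ones, 224 (79.2%) had opposite signs. Among all genes tested, 31.4% of the positive and 32.3% of the negative estimates came from effects of opposite sign. In the fit of 10 libraries, shares were 80.5% of 395 positive and 84.4% of 160 negative genes, against 35.2% and 36.5%. These genes were picked on the same contrast, so the shares describe them and test nothing. The positive genes had a median of -0.56 in 5xFAD minus WT and of 0.14 in Kcnip3 KO-5xFAD minus Kcnip3 KO with 12 libraries, and of -0.53 and 0.43 with 10. The negative genes had the reverse signs, with medians of 0.41 and -0.16 with 12 libraries and 0.40 and -0.26 with 10.

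Fabp7 encodes brain lipid-binding protein, a fatty acid carrier of radial glia, neural stem cells and astrocytes (ENSMUSG00000019874, chr10:57784881-57788450, GRCm38). Its promoter window is shown because this gene alone passed with 10 libraries. The window, like those further on, is the sequence before the RefSeq start on GRCm38.p6, 5′ to 3′ on the gene's strand, up to 250 bases and without any base that the GENCODE annotation places in an exon. Capitals mark a match to the DRE, searched as GTCAAG on both strands, and to the cAMP response element CRE (TGACGTCA) or its short form (TGACG).
Fabp7 (chr10:57784673-57784880, plus strand): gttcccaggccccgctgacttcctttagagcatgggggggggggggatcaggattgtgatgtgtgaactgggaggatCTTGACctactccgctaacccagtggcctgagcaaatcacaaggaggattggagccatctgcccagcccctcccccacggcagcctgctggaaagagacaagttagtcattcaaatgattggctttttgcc
The window holds 1 match to GTCAAG, read on the opposite strand. The same letters occur in 7.73% of the windows of tested genes. For this share and those given further on, windows were counted at their full 250 bases, with any exon bases kept. A match is a description, not a binding site.

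For Fabp7 the WT libraries held 36.4, 33.1 and 37.9 CPM, the Kcnip3 KO libraries 18.1, 27.8 and 21.8, the 5xFAD libraries 22.6, 31.6 and 25.8, and the Kcnip3 KO-5xFAD libraries 73.8, 38.6 and 62.9. By their labels the Kcnip3 KO-5xFAD libraries lay above the 9 others, but the nearest values, 38.6 and 37.9 CPM, belong to Kcnip3 KO-5xFAD 2 and WT 3, whose Thy1 and Cst7 go against those labels. Without this pair, Kcnip3 KO-5xFAD stood at 62.9 and 73.8 CPM and the remaining libraries at 18.1 to 36.4 CPM. Neither Kcnip3 KO nor 5xFAD reached the lowest WT library. If the effects of the knockout and of the transgenes had added up on the log2 scale, the mean in Kcnip3 KO-5xFAD would have been 16.8 CPM, against 58.4 ± 18.1 CPM measured (SD, n = 3). The 5xFAD effect was -0.43 ± 0.22 with Kcnip3 and 1.38 ± 0.22 without it (log2, SE). The interaction was 1.80 (95% interval 1.14 to 2.47, edgeR adjusted p = 0.43) with 12 libraries and 1.99 (1.44 to 2.53, adjusted p = 0.0417) with 10. With 10 libraries the rise without Kcnip3 also passed on its own (1.60, edgeR adjusted p = 0.000221). The estimate stayed between 1.6 and 2.13 over 24 ways of fitting, but the call with 10 libraries was lost when WT 1 (adjusted p = 0.221), WT 2 (0.207), Kcnip3 KO 1 (0.0901), Kcnip3 KO 3 (0.203), 5xFAD 3 (0.221) or Kcnip3 KO-5xFAD 1 (0.504) was also left out.

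Fabp7 belongs to a list of 18 adult neurogenesis genes, which in the hippocampus mark the stem cells, progenitors and immature neurons of the dentate gyrus. Of the 16 tested, 5 had an unadjusted interaction p under 0.05, all higher, which is 31.2% against 5.26% of all genes, and 10 of 16 estimates were positive, with a median of 0.29 against -0.01 over all genes. With 10 libraries 6 of 16 were higher (37.5% against 3.45%) and the median was 0.21. None but Fabp7 passed after adjustment over all genes in either fit.

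Eomes (Tbr2), a transcription factor of intermediate progenitors, read 5.32, 0.532 and 1.04 CPM in the WT libraries, 0.345 to 0.418 in Kcnip3 KO, 0.762, 0 and 0.0905 in 5xFAD, and 16.4, 2.89 and 2.58 in Kcnip3 KO-5xFAD. Kcnip3 KO-5xFAD 1 was far above every other library, and the remaining Kcnip3 KO-5xFAD libraries were above all but WT 1. Its interaction was 7.24 (95% interval 3.33 to 11.16) on few counts, and 7.98 (3.85 to 12.10) with 10 libraries. Dcx, the microtubule protein doublecortin of immature neurons, read 18 to 19.5 CPM across WT. Its Kcnip3 KO libraries read 17.5, 11.5 and 10 CPM, those of 5xFAD 12.1, 8.79 and 10.5, and those of Kcnip3 KO-5xFAD 30.9, 12.1 and 14.9. The 5xFAD libraries were below WT without overlap, whereas Kcnip3 KO-5xFAD overlapped Kcnip3 KO, and the interaction was 1.42 (0.48 to 2.35), or 1.64 (0.72 to 2.55) with 10 libraries. Calb2 (calretinin), a calcium buffer of immature granule cells and interneurons, averaged 54.0 ± 14.4, 49.7 ± 15.6, 50.6 ± 14.2 and 102 ± 37.7 CPM by genotype (WT, Kcnip3 KO, 5xFAD, then Kcnip3 KO-5xFAD; SD, n = 3), an interaction of 1.14 (0.15 to 2.13) and of 1.39 (0.21 to 2.57) with 10 libraries. Igfbpl1, found in neural progenitors, gave 3.00 (1.07 to 4.93) and 3.47 (1.48 to 5.45) in turn, at a mean of 0.308 to 2.41 CPM. Members without such an estimate were Sox2 (0.22 with 12 libraries and 0.31 with 10), Neurod1 (0.22 and -0.04), Nes (-0.08 and 0.03), Sox11 (-0.16 and -0.49) and the proliferation marker Mki67 (-0.69 and -0.91).

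Olfactory bulb transcripts moved with these values in 1 library. Th, tyrosine hydroxylase, was at 50.1 CPM in Kcnip3 KO-5xFAD 1 and at 1.44 and 0.982 CPM in the other libraries of its group, with 13.9 CPM in WT 1. Doc2g was at 51.4 CPM, Cdhr1 at 60.1 CPM and Gng4 at 145 CPM in Kcnip3 KO-5xFAD 1, each above every other library. The bulb and its feeding stream of migrating precursors express Eomes, Dcx, Calb2 and Fabp7 as well. Without Kcnip3 KO-5xFAD 1, 5 of the 16 adult neurogenesis genes had an unadjusted p under 0.05, with a median of 0.34, and Fabp7 gave 1.60 with edgeR adjusted p = 0.93. The share of all genes at that p in this fit was not counted. The part of this library's other tissue in the remaining values was not tested.

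**Figure D2:**
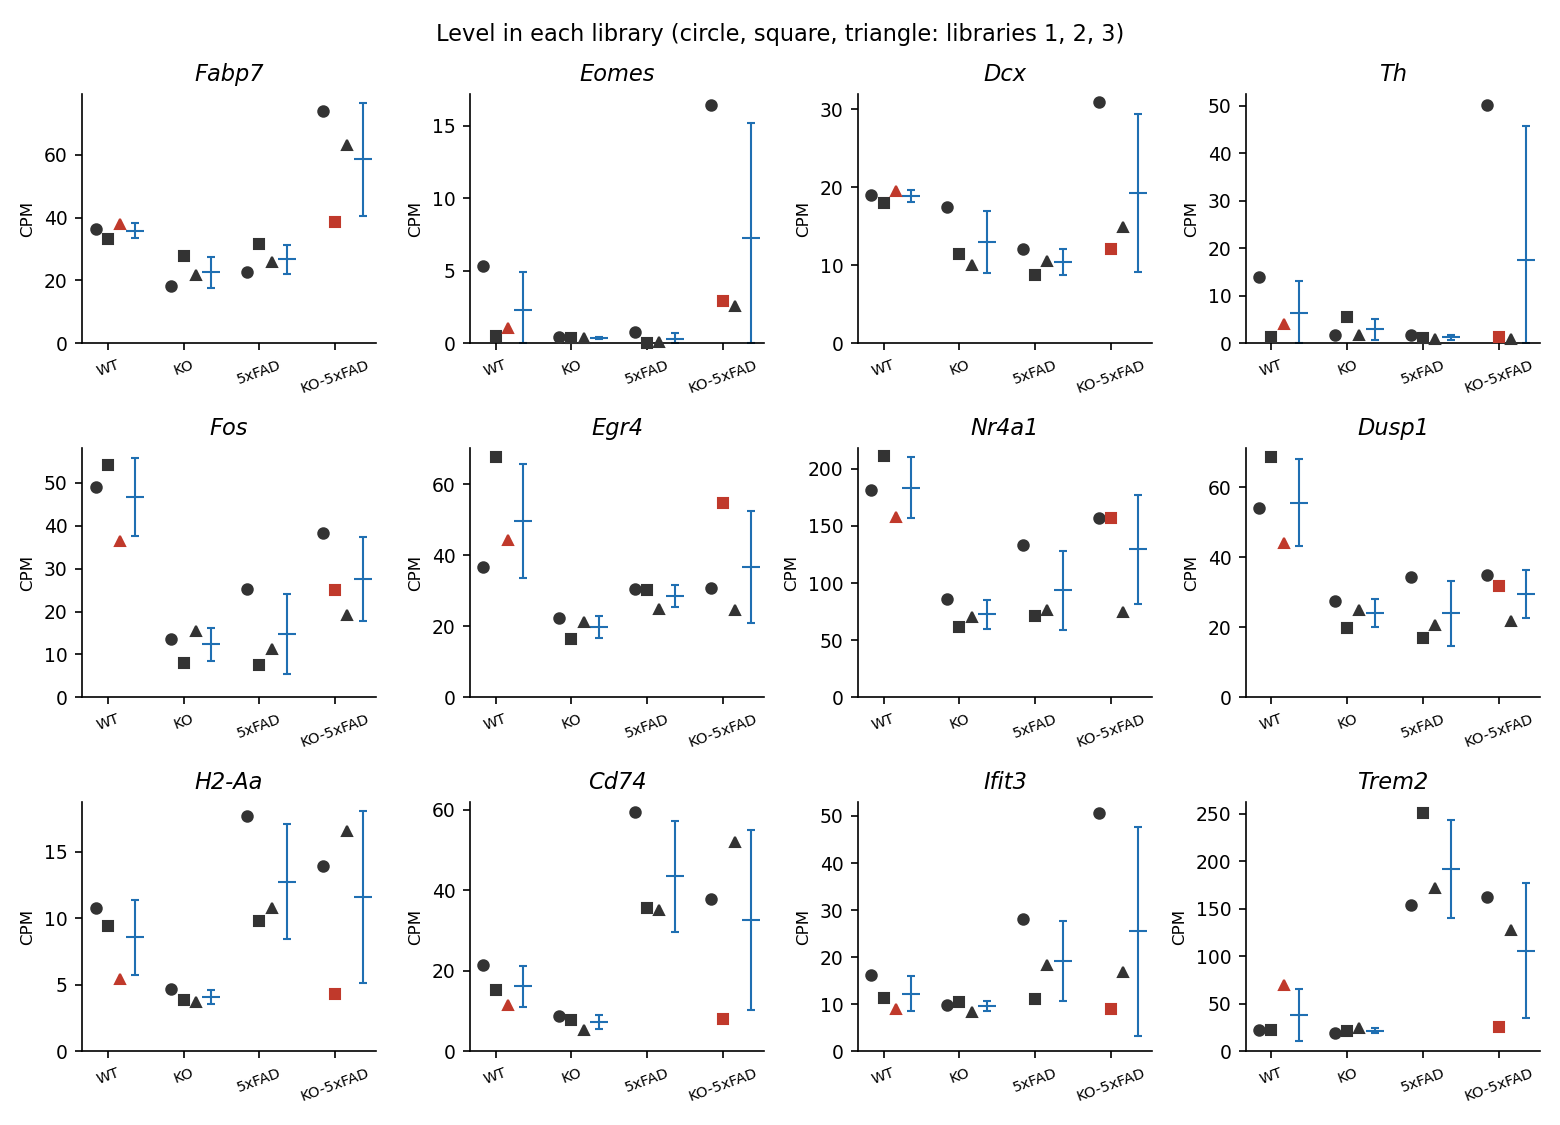
Level of 12 genes in each library (CPM, vertical axis from 0) by genotype; circles, squares and triangles are libraries 1, 2 and 3, red points are WT 3 and Kcnip3 KO-5xFAD 2, and blue marks are means with SD, drawn no lower than 0. Fabp7 is at 62.9 and 73.8 CPM in Kcnip3 KO-5xFAD 3 and 1 and at 38.6 CPM or less in every other library, Th is at 50.1 CPM in one of them, and Fos, Egr4, Nr4a1 and Dusp1 are lower in Kcnip3 KO than in WT.

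Immediate-early genes, which neurons switch on within minutes of synaptic activity and calcium entry, were the next group examined, since KChIP3 is itself a calcium-regulated repressor. Of 35 activity-regulated genes, 12 had an unadjusted interaction p under 0.05 in the higher direction and 0 in the lower, 34.3% against 5.26% of all genes, and 23 of 35 estimates were positive, with a median of 0.37. With 10 libraries 11 were higher and 1 lower, 34.3% against 3.45%, with 19 of 35 positive and a median of 0.23. None was called by edgeR with 12 or 10 libraries. The list's median was -0.67 in 5xFAD minus WT and 0.06 in Kcnip3 KO-5xFAD minus Kcnip3 KO (-0.53 and -0.05 with 10 libraries), and in Kcnip3 KO minus WT it was -0.12 (0.03 with 10). The members with the largest estimates, given next, were high in WT and lower in Kcnip3 KO and in 5xFAD, an order that the list as a whole did not show for Kcnip3 KO.

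Fos, a subunit of the AP-1 transcription factor, read 49, 54.2 and 36.5 CPM in the WT libraries, 13.6, 7.97 and 15.5 in Kcnip3 KO, 25.3, 7.66 and 11.2 in 5xFAD, and 38.3, 25 and 19.2 in Kcnip3 KO-5xFAD. WT overlapped neither Kcnip3 KO nor 5xFAD, and Kcnip3 KO-5xFAD lay above Kcnip3 KO without overlap. The 5xFAD effect was -1.66 with Kcnip3 and 1.15 without it, an interaction of 2.81 (95% interval 1.51 to 4.11) and of 3.03 (1.43 to 4.62) with 10 libraries. Additive effects would have given 3.91 CPM in Kcnip3 KO-5xFAD, against 27.5 ± 9.79 CPM measured (SD, n = 3).

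Egr4, a zinc-finger transcription factor, read 36.8, 67.7 and 44.4 CPM in the WT libraries, 22.2, 16.3 and 21.1 in Kcnip3 KO, 30.4, 30.2 and 24.8 in 5xFAD and 30.8, 54.6 and 24.6 in Kcnip3 KO-5xFAD, an interaction of 1.69 (0.80 to 2.58), or 1.36 (0.65 to 2.07) with 10 libraries. Nr4a1, an orphan nuclear receptor, read 181, 211 and 158 CPM in the WT libraries, 86.4, 61.9 and 70.0 in Kcnip3 KO, 133, 70.9 and 76.8 in 5xFAD and 157, 157 and 74.5 in Kcnip3 KO-5xFAD, an interaction of 1.80 (0.84 to 2.76), or 1.74 (0.60 to 2.88) with 10. In both genes the Kcnip3 KO and 5xFAD libraries lay below every WT library, and the third Kcnip3 KO-5xFAD library lay near them. Dusp1, a phosphatase that switches off MAP kinases, passed in 5xFAD against WT (-1.21, edgeR adjusted p = 0.0358) and read 54.1, 68.7 and 44.1 CPM across the WT libraries, 27.6, 19.8 and 25.1 in Kcnip3 KO, 34.5, 16.9 and 20.8 in 5xFAD, and 35.1, 31.9 and 21.9 in Kcnip3 KO-5xFAD, an interaction of 1.5 (0.70 to 2.30). With 10 libraries the Dusp1 effect in 5xFAD against WT did not pass (-1.35, edgeR adjusted p = 0.0518) and the interaction was 1.59 (0.68 to 2.5). Sik1, a kinase induced by cAMP, averaged 18.3 ± 1.32, 12.8 ± 0.978, 12 ± 1.45 and 18.7 ± 5.37 CPM by genotype (WT, Kcnip3 KO, 5xFAD, then Kcnip3 KO-5xFAD; SD, n = 3), with an interaction of 1.16 (0.58 to 1.73), or 1.00 (0.34 to 1.66) with 10 libraries. Dusp1 overlaps Ergic1 on the opposite strand, and the strand setting of the counting is not given in the sources used here.

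Other members repeated this order of means. Npas4, a neuron-specific activity factor, averaged 52.9, 15.1, 21.8 and 31.1 CPM by genotype (WT, Kcnip3 KO, 5xFAD, then Kcnip3 KO-5xFAD), an interaction of 2.33 (95% interval 0.87 to 3.79), or 2.67 (1.01 to 4.33) with 10 libraries. Egr1 (Zif268), a transcription factor of synaptic plasticity, averaged 213, 90.9, 93.2 and 138 CPM, an interaction of 1.80 (0.79 to 2.81), or 1.71 (0.41 to 3.02) with 10. Egr2 gave 2.88 (1.27 to 4.49), the antiproliferative gene Btg2 1.70 (0.69 to 2.71), the AP-1 gene Junb 1.57 (0.55 to 2.59) and Ier2 1.33 (0.22 to 2.44). With 10 libraries these came to 2.53 (0.59 to 4.47) for Egr2, 1.90 (0.88 to 2.92) for Btg2, 1.42 (0.34 to 2.49) for Junb and 1.70 (0.83 to 2.57) for Ier2. The 5xFAD libraries did not share one level: 5xFAD 1 was at 41.9 CPM of Npas4 and 149 CPM of Egr1, against 11.1 to 12.3 CPM and 62.8 to 67.9 CPM in 5xFAD 2 and 5xFAD 3. Without the library 5xFAD 1, edgeR called Npas4 (3.21, adjusted p = 0.0105), Egr2 (3.88, 0.0323), Egr1 (2.30, 0.0323) and Slc47a1 (3.50, 0.0323), and leaving any other single library out of the 12 it called no activity-regulated gene.

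Other members of the list did not share the pattern. Arc, a synaptic effector gene, spread over 102 to 378 CPM within Kcnip3 KO and 173 to 421 CPM within Kcnip3 KO-5xFAD, and its interaction of 1.01 had an interval of -0.57 to 2.59 (0.72, -1.15 to 2.6, with 10 libraries). Nptx2, a secreted synaptic pentraxin, was at 342 CPM in Kcnip3 KO 3 and at 33.6 to 76.9 CPM in every other library. Bdnf, the neurotrophin, gave -0.38 (-0.65 with 10 libraries), the prostaglandin synthase gene Ptgs2 -0.43 (-0.89), the activin gene Inhba -0.45 (-0.40) and the neuropeptide gene Vgf -0.23 (-0.32). Kcnip3 KO 3 is also the knockout library with 125 CPM of Kcnip3, against 71.4 and 63.4 CPM in the others. Without it, 34 of the 35 activity-regulated genes had a positive estimate, with a median of 0.71, and 15 had an unadjusted p under 0.05. The shares of all genes in that fit were not counted, so these counts have no background beside them. Kcnip3 KO 3 also held the highest summed level of this list (2950 CPM), so leaving it out lowers the summed level of the Kcnip3 KO group. The higher estimates are therefore not independent of that choice and test nothing.

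Promoter windows of activity-regulated genes with large estimates are shown because the CRE is the element through which calcium and cAMP act on such genes, and KChIP3 is reported to bind both DRE and CREB-family proteins.
Fos (chr12:85473640-85473889, plus strand): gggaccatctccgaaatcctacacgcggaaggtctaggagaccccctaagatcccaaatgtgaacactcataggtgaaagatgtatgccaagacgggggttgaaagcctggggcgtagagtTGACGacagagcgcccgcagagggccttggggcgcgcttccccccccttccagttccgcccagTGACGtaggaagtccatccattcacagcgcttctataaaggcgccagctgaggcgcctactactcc
Egr4 (chr6:85513590-85513839, minus strand): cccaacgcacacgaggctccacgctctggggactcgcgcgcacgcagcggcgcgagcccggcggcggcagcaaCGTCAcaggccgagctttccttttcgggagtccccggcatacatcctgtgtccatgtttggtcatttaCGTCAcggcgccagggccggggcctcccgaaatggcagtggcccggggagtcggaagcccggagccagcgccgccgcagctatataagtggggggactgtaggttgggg
Nr4a1 (chr15:101266596-101266845, plus strand): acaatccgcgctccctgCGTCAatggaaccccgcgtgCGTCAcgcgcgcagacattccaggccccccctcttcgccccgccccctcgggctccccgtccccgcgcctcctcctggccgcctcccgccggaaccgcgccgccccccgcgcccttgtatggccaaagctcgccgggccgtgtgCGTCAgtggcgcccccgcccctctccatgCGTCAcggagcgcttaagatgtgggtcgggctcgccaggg
Dusp1 (chr17:26508520-26508722, minus strand): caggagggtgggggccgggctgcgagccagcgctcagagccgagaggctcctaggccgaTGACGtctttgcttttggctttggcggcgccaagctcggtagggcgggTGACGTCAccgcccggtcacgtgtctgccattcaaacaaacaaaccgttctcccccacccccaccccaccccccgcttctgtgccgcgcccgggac
These windows hold 2, 2, 4 and 3 matches to the short CRE form, counted on both strands, and the full CRE of Dusp1 accounts for 2 of its 3. The short form occurred in 52.5% of the 40 windows found for 27 of the 35 activity-regulated genes, against 25% of the windows of all tested genes and 17.8% of all windows in the table. The full CRE occurred in 7.5% of the 40, against 2.46% of those of all tested genes. The serum response element, searched by its usual consensus, occurred in 12.5% against 1.15%, but its 5 windows belong to only 2 of the 27 genes, and GTCAAG in 5.0% against 7.73%. These genes were listed for their known response to activity, so the shares describe the list and say nothing of what changed here.

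Reported target genes of KChIP3 were few. Of 18 listed, 13 could be tested and 3 had an unadjusted interaction p under 0.05 (23.1% against 5.26% of all genes, and 3 of 13 also with 10 libraries, against 3.45%), all higher and all also activity-regulated: Fos, Nr4a1 and Npas4. With 12 libraries the others ranged from -0.38 for Bdnf to 0.93 for Fosb, an AP-1 gene, with Pdyn, the prodynorphin gene classically repressed by DREAM, at -0.14 and the sodium-calcium exchanger gene Slc8a3 at 0.39 (Bdnf -0.65, Fosb 0.66, Pdyn -0.43 and Slc8a3 0.41 with 10). Among 11 genes of KChIPs and Kv4 channels, 1 reached an unadjusted p under 0.05 with 12 libraries (9.09% against 5.26%) and 0 with 10: Kcnd2, the gene of the Kv4.2 pore that KChIPs escort to the membrane. Kcnd2 averaged 35.8 ± 0.764, 36.8 ± 2.27, 26.2 ± 0.969 and 37.4 ± 8.99 CPM by genotype (WT, Kcnip3 KO, 5xFAD, then Kcnip3 KO-5xFAD; SD, n = 3), an interaction of 0.47 (0.05 to 0.90) that came to 0.27 (-0.13 to 0.67) with 10 libraries. Kcnip4, a related KChIP, gave 0.36 (-0.07 to 0.79), and Kcnip1, Kcnip2 and Kcnd3 gave 0.07, 0.03 and 0.32 (Kcnip4 0.25, Kcnip1 0.17, Kcnip2 -0.15 and Kcnd3 0.29 with 10). Of 22 genes of App, the secretases and their relatives, 1 reached an unadjusted p under 0.05, a share of 4.55% and so near that of all genes: Clu, the amyloid-binding chaperone clusterin, at -0.38 (-0.71 to -0.05) and, with 10 libraries, at -0.33 (-0.74 to 0.08).

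Many genes of plaque-associated microglia rose with the transgenes in both backgrounds once WT 3 and Kcnip3 KO-5xFAD 2 were left out. With 10 libraries edgeR called 21 of the 28 higher in 5xFAD minus WT and 19 in Kcnip3 KO-5xFAD minus Kcnip3 KO. Of all genes tested, 1.22% and 1.29% were called higher there. With 12 it called 13 and 0, against 1.91% and 0.0% of all genes. WT 3 and Kcnip3 KO-5xFAD 2 were left out partly for their level of Cst7, a member of this list. The calls, p-values and separation of groups with 10 libraries are therefore not independent of that choice. In 10 libraries Trem2, a lipid receptor of microglia, rose by 3.09 ± 0.22 with Kcnip3 and by 2.74 ± 0.20 without it (log2, SE, edgeR adjusted p = 1.95e-05 and 1.88e-05), with levels of 22.3 and 22.9 CPM (WT), 154, 251 and 172 (5xFAD), 19.7, 21.3 and 24.7 (Kcnip3 KO) and 163 and 128 (Kcnip3 KO-5xFAD). The transgene groups did not overlap their controls, and the interaction was -0.35 (95% interval -0.96 to 0.26). Tyrobp, the signalling partner of Trem2, gave -0.33 (-0.94 to 0.29) and the astrocyte filament gene Gfap -0.68 (-1.80 to 0.44). These intervals include 0 and, in Gfap, also a difference of over 1 log2 unit. With all 12 libraries the intervals were wider: Trem2 came to -0.05 (-2.15 to 2.06), Tyrobp to -0.14 (-1.93 to 1.65) and Gfap to -0.60 (-2.39 to 1.19). Cst7, the integrin gene Itgax and the glucan receptor gene Clec7a had 3 or fewer counts in every Kcnip3 KO library. Itgax read 19.9 to 27.9 CPM across 5xFAD and 19, 0.778 and 16.9 CPM across Kcnip3 KO-5xFAD, and Clec7a 13.6 to 15.6 CPM and 17.9, 0.445 and 6.88 CPM.

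Over the 28 genes of that list, the median interaction was -0.12 with 12 libraries and -0.15 with 10, with 10 of 28 estimates positive in each, against a median of -0.01 over all genes. Over the 24 of them with no group at 3 counts or fewer, the medians were -0.20 and -0.17. With 12 libraries 2 of the 28 had an unadjusted p under 0.05, both lower, which is 7.14% against 5.26% of all genes. They were Lgals3, which encodes galectin 3 and averaged 2.04, 2.87, 7.19 and 4.96 CPM by genotype (WT, Kcnip3 KO, 5xFAD, then Kcnip3 KO-5xFAD; interaction -1.01, interval -1.92 to -0.11), and the tetraspanin gene Cd63 (-0.41, -0.81 to -0.02). With 10 libraries these came to -0.68 (-1.53 to 0.17) and -0.19 (-0.54 to 0.15). Homeostatic microglia, 16 genes, had a median of -0.26 (-0.20 with 10 libraries), with Cst3 (cystatin C) at -0.32 (-0.74 to 0.09; -0.27 with 10) and Tmem119 at -0.26 (-0.66 to 0.14; -0.25 with 10). Lysosomal genes were below 0 in 21 of 23, by a median of -0.15. Npc2, which encodes a cholesterol carrier, was among those with an unadjusted p under 0.05 (-0.45, -0.89 to -0.01; -0.29, -0.65 to 0.07, with 10 libraries). With 10 libraries 16 of 24 lysosomal genes were below 0, the median was -0.09 and none reached that p. Complement and Fc receptor genes had a median of -0.08 in either fit.

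Antigen presentation genes leaned to positive estimates, which the other microglial lists did not. With 12 libraries this lean was absent once Kcnip3 KO-5xFAD 1 was left out, as given with the interferon genes below. Kcnip3 KO-5xFAD 2, which the fit of 10 libraries leaves out, was low in several of these genes. The counts with 10 libraries are therefore not independent of that choice. Of 17 genes, 14 had a positive interaction with 12 libraries and all 17 with 10, with medians of 0.29 and 0.68, and 2 and then 8 reached an unadjusted p under 0.05 (11.8% and 47.1%, against 5.26% and 3.45% of all genes). H2-Aa, an MHC class II alpha chain, read 10.8, 9.46 and 5.43 CPM in the WT libraries, 4.71, 3.87 and 3.68 in Kcnip3 KO, 17.7, 9.78 and 10.8 in 5xFAD, and 13.9, 4.33 and 16.6 in Kcnip3 KO-5xFAD. The Kcnip3 KO libraries lay below every WT library, both transgene groups overlapped WT, and Kcnip3 KO-5xFAD 2 lay among the Kcnip3 KO libraries. With 10 libraries the 5xFAD effect was 0.32 with Kcnip3 and 1.89 without it (edgeR adjusted p = 0.00114), an interaction of 1.57 (95% interval 0.80 to 2.33). The H2-Aa interaction with all 12 was 0.93 (-0.38 to 2.23). Cd74, the invariant chain that guides class II molecules, averaged 16.1 ± 4.99, 7.31 ± 1.81, 43.4 ± 13.8 and 32.6 ± 22.4 CPM by genotype (WT, Kcnip3 KO, 5xFAD, then Kcnip3 KO-5xFAD; SD, n = 3), an interaction of 0.72 (-1.08 to 2.53) and of 1.38 (0.52 to 2.24) with 10. H2-Ab1 gave 1.28 (0.51 to 2.04) and H2-Eb1 1.42 (0.51 to 2.33) with 10 libraries, and the class I genes H2-Q6 and H2-Q7 gave 1.65 (0.71 to 2.6) and 1.90 (0.65 to 3.15), though reads of these close copies are hard to assign. With 12 libraries the estimates were 0.70 (-0.70 to 2.1) for H2-Ab1, 0.86 (-0.30 to 2.02) for H2-Eb1, 1.38 (0.26 to 2.49) for H2-Q6 and 1.47 (0.05 to 2.88) for H2-Q7. In all of these genes the Kcnip3 KO mean was below the WT mean, and in all but H2-Eb1 no Kcnip3 KO library reached the lowest WT library: H2-Q6 read 3.62 to 4.28 CPM across WT and 1.21 to 1.61 CPM across Kcnip3 KO.

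Interferon-induced genes were positive in 23 of 24 with a median of 0.83, and 2 reached an unadjusted p under 0.05 (8.33% against 5.26% of all genes). With 10 libraries 23 of 24 were positive with a median of 1.40, and 12 reached that p (50% against 3.45%). The medians over the 21 genes with no group at 3 counts or fewer were 0.76 and 1.32. Ifit3, an antiviral effector, read 16.3, 11.4 and 8.98 CPM in the WT libraries, 9.93, 10.6 and 8.4 in Kcnip3 KO, 28.1, 11.2 and 18.3 in 5xFAD, and 50.7, 9 and 16.8 in Kcnip3 KO-5xFAD. Oasl2, Irf7, Cxcl10 and Ifi44 were likewise highest in Kcnip3 KO-5xFAD 1 (37.3, 28.9, 6.21 and 7.1 CPM), while Kcnip3 KO-5xFAD 2 was low in each of them. The interferon counts with 10 libraries are therefore not independent of leaving Kcnip3 KO-5xFAD 2 out. Mx1, an antiviral GTPase, had 2, 0 and 1 counts in Kcnip3 KO and 36, 0 and 16 in Kcnip3 KO-5xFAD, so no fold is given. The Ifit3 interaction was 0.75 (-1.08 to 2.57) with 12 libraries and 1.33 (-0.24 to 2.91) with 10. Without Kcnip3 KO-5xFAD 1, 12 of 24 interferon response genes were positive and the median was 0.04, Ifit3 gave -0.24 and Irf7 -0.05. With that library also left out of the 10, 21 of 24 were positive and the median was 0.72. The antigen presentation list without Kcnip3 KO-5xFAD 1 had a median of -0.04, and of 0.39 when WT 3 and Kcnip3 KO-5xFAD 2 were also left out, with 15 of 17 positive. The summed level of 24 interferon genes was 634 CPM in Kcnip3 KO-5xFAD 1 against 183 to 475 CPM in all other libraries.

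**Figure D3:**
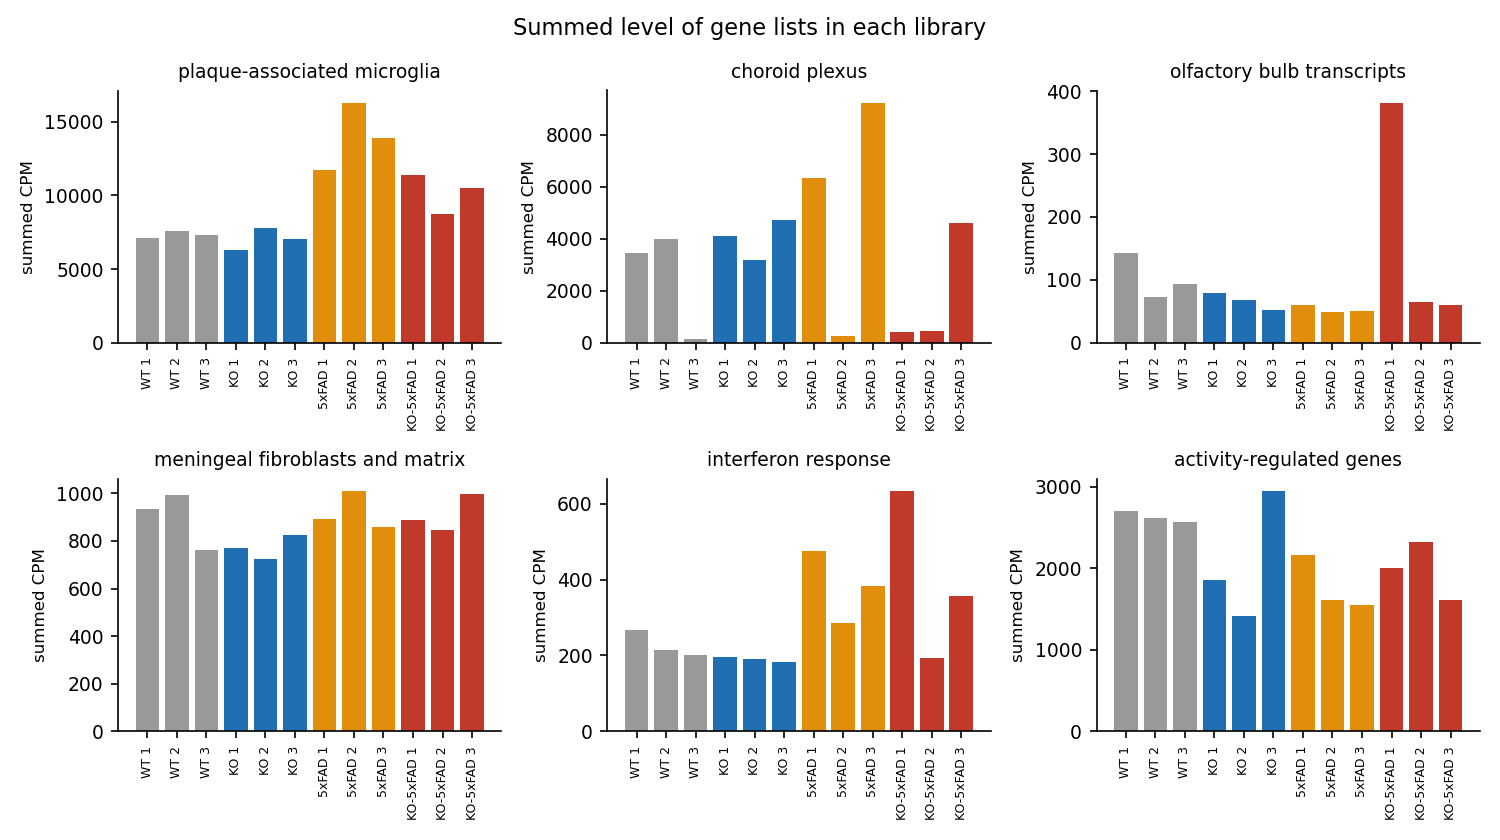
Summed CPM of 6 gene lists in each library (vertical axes from 0), with WT grey, Kcnip3 KO blue, 5xFAD orange and Kcnip3 KO-5xFAD red. Kcnip3 KO-5xFAD 1 has the highest sums of olfactory bulb transcripts (382 CPM) and interferon response genes (634 CPM), the libraries WT 3, 5xFAD 2, Kcnip3 KO-5xFAD 1 and Kcnip3 KO-5xFAD 2 have choroid plexus sums under 500 CPM, and Kcnip3 KO 3 has the highest sum of activity-regulated genes.

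Genes called lower in 5xFAD against WT, several neuronal ones among them, mostly had smaller differences without Kcnip3. The 258 genes called lower in 5xFAD minus WT with 12 libraries had a median effect of -0.63 there and of -0.20 in Kcnip3 KO-5xFAD minus Kcnip3 KO, and 257 of them had the smaller effect without Kcnip3. The 304 called higher had medians of 0.73 and 0.39, with 291 smaller. That fit includes Kcnip3 KO-5xFAD 2, whose Thy1 and Cst7 go against its label. Among all genes tested, the effect was smaller without Kcnip3 in 10207 of 15905 with 12 libraries and in 9548 of 16076 with 10. Of the fit of 10 libraries, the 13 genes called lower had medians of -0.79 and -0.19, with all 13 smaller without Kcnip3, but the 196 called higher had medians of 1.42 and 1.27, with 147 smaller. The 208 called higher without Kcnip3 had medians of 1.35 with it and 1.58 without it, and 95 of them had the smaller effect without it. Since the genes were picked for a called effect in one comparison, these medians and counts test nothing. Snap25, a SNARE protein of vesicle release, read 1540.0, 1280.0 and 1510.0 CPM in the WT libraries, 1440.0, 1200.0 and 1450.0 in Kcnip3 KO, 965, 823 and 875 in 5xFAD, and 1190.0, 1070.0 and 1130.0 in Kcnip3 KO-5xFAD. Neither transgene group overlapped its control, the effects were -0.70 (edgeR adjusted p = 0.0173) and -0.27 (adjusted p = 0.425), and the interaction was 0.43 (95% interval 0.09 to 0.77), or 0.43 (0.02 to 0.85) with 10 libraries. Creb1, the transcription factor that binds CRE, averaged 25.5 ± 5.32, 25.1 ± 3.69, 16.4 ± 1.92 and 23.1 ± 1.99 CPM by genotype (WT, Kcnip3 KO, 5xFAD, then Kcnip3 KO-5xFAD; SD, n = 3), an interaction of 0.52 (0.02 to 1.01) whose interval with 10 libraries included 0 (0.42, -0.17 to 1.00).

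Further neuronal genes with an unadjusted p under 0.05 in 12 libraries had their lowest mean in 5xFAD. They included Kcnh7, an ERG-type potassium channel, at 21.8, 18.2, 11.4 and 18.7 CPM by genotype (WT, Kcnip3 KO, 5xFAD, then Kcnip3 KO-5xFAD; interaction 0.97, 95% interval 0.44 to 1.5, and 0.81, 0.22 to 1.40, with 10 libraries). The AMPA receptor gene Gria4 gave 0.64 (0.08 to 1.19), the adhesion gene Nlgn1 0.55 (0.06 to 1.04), the phospholipase gene Plcb1 0.50 (0.08 to 0.92), the active-zone gene Pclo 0.41 (0.04 to 0.78), the calcium channel subunit gene Cacna2d1 0.81 (0.23 to 1.40), the potassium channel gene Kcnb2 0.96 (0.14 to 1.78) and the extracellular protein gene Reln 0.74 (0.03 to 1.44). In the fit of 10 libraries, the intervals of Nlgn1 (0.44, -0.10 to 0.99), Plcb1 (0.33, -0.13 to 0.79) and Pclo (0.33, -0.10 to 0.77) included 0. Those of Gria4 (0.77, 0.20 to 1.34), Cacna2d1 (0.57, 0.01 to 1.13), Kcnb2 (1.09, 0.16 to 2.02) and Reln (0.83, 0.17 to 1.49) did not. Opposite to these, the kainate receptor gene Grik4 gave -0.65 (-1.15 to -0.14) and Pvalb, parvalbumin of fast-spiking interneurons, -0.77 (-1.36 to -0.18), or -0.64 (-1.21 to -0.08) and -0.86 (-1.45 to -0.26) with 10 libraries. As lists, however, synaptic genes had medians near 0. Of 29 genes of synaptic vesicles and release, 2 were higher and 0 lower at that p (6.9% against 5.26% of all genes), with a median of -0.02. Of 39 glutamate receptor and scaffold genes, 2 were higher and 1 lower (7.69%), with a median of 0.07. Potassium channels other than Kv4 had 4 higher and 1 lower of 29 (17.2%), with a median of 0.08. Cortex, striatum and thalamus markers, which could come from neighbouring tissue, had 2 higher and 3 lower of 19 (26.3%), with a median of -0.42. For 10 libraries, medians of these lists were -0.05, 0.02, 0.06 and -0.32, in the same order. The counts at that p were 1 of 29, 3 of 39, 2 of 29 and 5 of 19, against 3.45% of all genes. Estimates were positive in 26 of 34 plasticity kinase and signalling genes, 19 of 29 calcium genes and 18 of 27 GABAergic genes. Their medians were 0.13, 0.09 and 0.15, and 47.8% of all genes were positive. With 10 libraries it was 19, 15 and 16, with medians of 0.06, 0.03 and 0.10, against 48.0%.

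**Figure D4:**
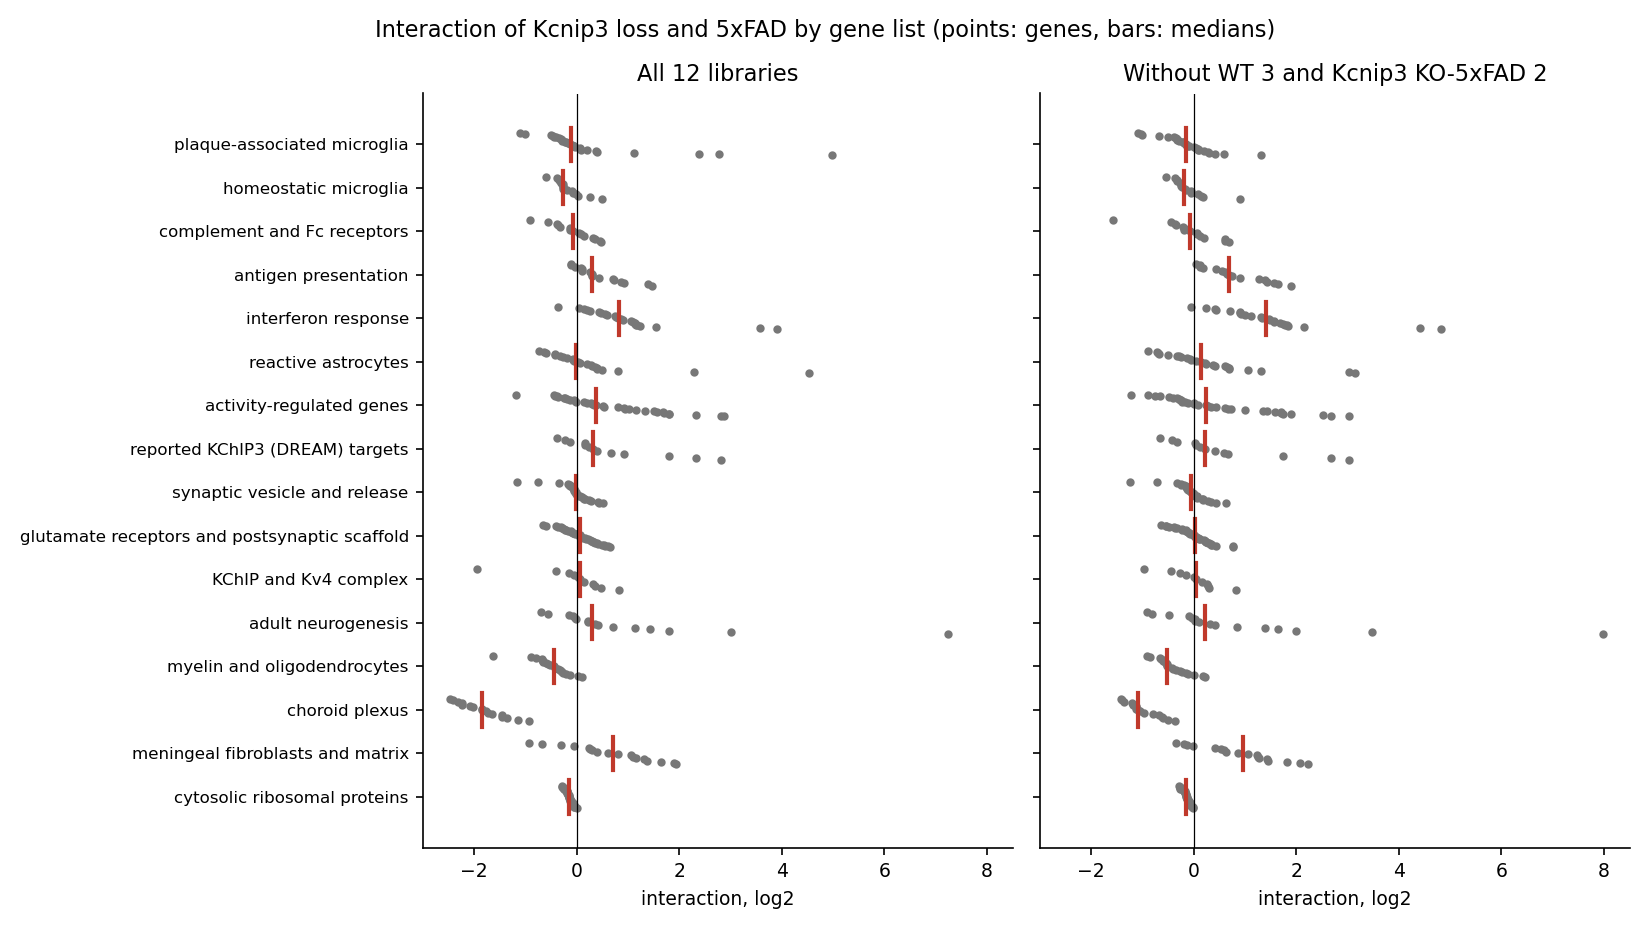
Interaction (log2, horizontal axis) of each tested gene of 16 lists, with all 12 libraries on the left and with 10 on the right; points are genes in order of size and red bars are medians. Choroid plexus genes lie below 0 in both panels (medians -1.84 and -1.08), interferon response genes lie mostly above 0 (medians 0.83 and 1.40), and plaque-associated microglia and synaptic lists centre near 0.

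Astrocyte genes gave a mixed picture. Gja1 (connexin 43), the main astrocyte gap junction protein, averaged 127, 124, 94.4 and 142 CPM by genotype (WT, Kcnip3 KO, 5xFAD, then Kcnip3 KO-5xFAD), an interaction of 0.62 (95% interval 0.25 to 1.00), or 0.60 (0.16 to 1.03) with 10 libraries. Fgfr3, a growth factor receptor of astrocytes, gave -0.49 (-0.84 to -0.13), or -0.41 (-0.84 to 0.01) with 10, and Mt1, a metallothionein, rose in 5xFAD against WT (0.97, adjusted p = 0.0216) with an interaction of -0.66 (-1.16 to -0.15), or -0.70 (-1.31 to -0.08) with 10. The reactive astrocyte list of 24 tested genes was split evenly by sign, with a median of -0.01, and with 10 libraries 14 of 25 were positive with a median of 0.15. Its 1 gene with an unadjusted p under 0.05 in 12 libraries, Lcn2 (lipocalin 2), was at 11.2 CPM in WT 3, 6.10 CPM in Kcnip3 KO-5xFAD 1 and at most 2.02 CPM elsewhere. Myelin and oligodendrocyte genes were below 0 in 19 of 21, by a median of -0.44, and in 18 of 21 with 10 libraries (-0.52). Trf, transferrin, averaged 296, 439, 577 and 490 CPM (interaction -0.80, -1.51 to -0.10; with 10 libraries -0.64, -1.47 to 0.19) and Mbp, myelin basic protein, 2390.0, 3540.0, 3960.0 and 3670.0 CPM (-0.67, -1.47 to 0.12; with 10 libraries -0.66, -1.48 to 0.16), by genotype (WT, Kcnip3 KO, 5xFAD, then Kcnip3 KO-5xFAD). In both genes WT was the low group.

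Markers of tissue around the hippocampus gave large list medians. All 17 choroid plexus genes were below 0, by a median of -1.84 with 12 libraries and -1.08 with 10, and none had an unadjusted p under 0.05. Ttr, transthyretin, ran from 83.5 CPM in WT 3 and 203 CPM in 5xFAD 2 to 8720.0 CPM in 5xFAD 3, and its interaction of -2.24 had an interval of -7.21 to 2.74 (-1.20, -6.04 to 3.65, with 10 libraries). Without Kcnip3 KO-5xFAD 1, WT 3 and Kcnip3 KO-5xFAD 2, the choroid plexus median came to -0.27, with 5 of 17 positive. Genes of meningeal fibroblasts were positive in 14 of 18 with a median of 0.70 (14 of 18 and 0.96 with 10 libraries), led by the retinoid-binding protein gene Crabp2 (1.94, 95% interval 0.49 to 3.39), the GABA transporter gene Slc6a13 (1.89, 0.36 to 3.42) and Islr (1.16, 0.24 to 2.08). With 10 libraries these gave 2.23 (0.55 to 3.90) for Crabp2, 2.07 (0.11 to 4.03) for Slc6a13 and 1.43 (0.43 to 2.43) for Islr. Their summed level was 725 to 827 CPM in Kcnip3 KO, 847 to 998 in Kcnip3 KO-5xFAD, 858 to 1010.0 in 5xFAD and 760.0 to 995 in WT. The part of dissected neighbouring tissue in the other results was not tested.

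Ribosomal and mitochondrial genes leaned to one side as lists. Cytosolic ribosomal protein genes were below 0 in 33 of 34 with a median of -0.15, from a 5xFAD effect of 0.45 with Kcnip3 and 0.31 without it, and without the library 5xFAD 2 in 22 of 34 with a median of -0.02. Scaling by library size alone left 28 of 34 below 0 with a median of -0.08, and with 10 libraries all 34 were below 0 with a median of -0.15. The 10 tested mitochondrially encoded genes were all above 0, by a median of 0.28, with summed levels of 29400.0 to 32400.0 CPM in 5xFAD, 32100.0 to 40600.0 in WT, 35000.0 to 42900.0 in Kcnip3 KO and 34600.0 to 47000.0 in Kcnip3 KO-5xFAD. With 10 libraries 8 of 11 were above 0, with a median of 0.18. None of these genes had an unadjusted p under 0.05 with 12 libraries.

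Beyond the lists, the genes with the smallest interaction p and a mean of at least 1 CPM held few shared roles. Txnip, a thioredoxin inhibitor induced by glucose, read 37.5, 33.9 and 34.6 CPM in the WT libraries, 27.1, 24 and 20.7 in Kcnip3 KO, 34.5, 35.3 and 34.1 in 5xFAD, and 38.3, 38.8 and 36.2 in Kcnip3 KO-5xFAD. Only the Kcnip3 KO group stood apart, below all 9 other libraries, and the interaction was 0.68 (95% interval 0.36 to 1.01), or 0.68 (0.28 to 1.08) with 10 libraries. Hook1, a microtubule adaptor, read 33.8, 29.5 and 39.3 CPM in the WT libraries, 35, 25.6 and 27.6 in Kcnip3 KO, 20.2, 15.3 and 15.8 in 5xFAD and 26.3, 27.6 and 29.8 in Kcnip3 KO-5xFAD. Here only 5xFAD stood apart, with an effect of -1 (edgeR adjusted p = 0.0166) with Kcnip3, -0.08 without it and an interaction of 0.92 (0.46 to 1.38), or 0.82 (0.30 to 1.34) with 10 libraries. The centrosomal gene Cntln (0.94, 0.45 to 1.43) and Bche, butyrylcholinesterase (1.39, 0.71 to 2.07), had the same form, and both passed as lower in 5xFAD against WT (adjusted p = 0.0233 and 0.026). With 10 libraries Cntln gave 0.97 (0.38 to 1.56) and no longer passed in 5xFAD (adjusted p = 0.0501), and Bche gave 1.32 (0.51 to 2.14) and passed (0.0475). Ankrd63 gave 1.02 (0.47 to 1.58) and Lbhd2 3.98 (2.21 to 5.75), the latter at a mean of 0.337 CPM in 5xFAD and 5.17 CPM in Kcnip3 KO-5xFAD. With 10 libraries Ankrd63 gave 0.90 (0.43 to 1.36) and Lbhd2 3.90 (2.20 to 5.59).

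Most of the named genes with negative estimates were highest in 5xFAD. Ucp2, a mitochondrial carrier, read 38.7, 36 and 43.5 CPM in the WT libraries, 38.2, 38.5 and 35.3 in Kcnip3 KO, 87.1, 96.7 and 108 in 5xFAD, and 64.8, 45.6 and 62.7 in Kcnip3 KO-5xFAD. It rose with the transgenes in both backgrounds with 10 libraries (1.38 and 0.77, edgeR adjusted p = 5.14e-05 and 0.00312) without overlap between groups, and the interaction was -0.68 (95% interval -1.08 to -0.28) with 12 libraries and -0.61 (-0.97 to -0.25) with 10. Sugct, an enzyme of glutarate metabolism, averaged 3.42, 4.87, 8.02 and 4.98 CPM by genotype (WT, Kcnip3 KO, 5xFAD, then Kcnip3 KO-5xFAD; -1.19, -1.84 to -0.54, and with 10 libraries -1.18, -1.96 to -0.40). Zbtb7b gave -0.72 (-1.16 to -0.28), Smox, spermine oxidase, -0.56 (-0.92 to -0.21), Rfx2 -0.99 (-1.61 to -0.36) and the cadherin gene Cdh24 -0.73 (-1.19 to -0.26). In the fit of 10 libraries, the estimates were -0.61 for Zbtb7b, -0.53 for Smox, -0.74 for Rfx2 and -0.73 for Cdh24, each with an interval below 0. Peak1, a pseudokinase, stood apart in Kcnip3 KO instead, with 46.5 to 54.2 CPM there and 38.5 to 43.8 CPM over the 9 other libraries (-0.52, -0.80 to -0.24). The Kcnip3 KO mean was also the highest in Lsm11 (-0.57, -0.92 to -0.22) and in Hapln4, a link protein of perineuronal nets (-0.70, -1.11 to -0.29), and in Tjap1 (-0.70, -1.08 to -0.33) it was near that of 5xFAD, at 46.8 and 47.1 CPM. With 10 libraries Peak1 gave -0.51, Lsm11 -0.72, Hapln4 -0.60 and Tjap1 -0.69, again with intervals below 0. Gm12751, a processed pseudogene, had 31, 26 and 41 counts in 5xFAD, 1, 0 and 0 in WT, 1, 23 and 3 in Kcnip3 KO and 0, 1 and 0 in Kcnip3 KO-5xFAD, so no fold is given. Its reads can belong to a parent gene, and Ucp2, Sugct, Zbtb7b, Peak1 and Hook1 each overlap another annotated gene.

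A pair of genes was chosen for a difference with the Kcnip3 knockout. Eif3j2, a second copy of a translation factor gene, read at most 0.381 CPM in any library with intact Kcnip3, 8.58 to 11.7 in Kcnip3 KO and 10.2 to 11.5 in Kcnip3 KO-5xFAD, with 3 or fewer counts in each library of WT and 5xFAD. Pla2g4e, a phospholipase gene on the chromosome of Kcnip3, read 9.14 to 14.2 CPM in the libraries with intact Kcnip3, 43.6 to 62.2 in Kcnip3 KO and 42.6 to 50.1 in Kcnip3 KO-5xFAD, an interaction of -0.20 (95% interval -0.71 to 0.31) and of -0.10 (-0.70 to 0.50) with 10 libraries. Neither group pair overlapped across the knockout. Among the 213 tested genes within 10 Mb of Kcnip3, 8 were higher and 3 lower at an unadjusted p under 0.05, 5.16% against 5.26% of all genes, with a median of -0.03. With 10 libraries it was 5 higher and 3 lower of 217, 3.69% against 3.45%, with a median of -0.02.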

How the data were processed

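Gene expression was measured by RNA-seq (TruSeq mRNA libraries from Trizol total RNA, per the labels' protocols) in 12 hippocampus libraries, 3 per genotype. Among upstream tools the submitters' processing notes list HISAT2 (2.1.0) on mm10 and featureCounts, beside FastQC (0.11.9), R (4.2.1) and edgeR (3.38.4). The sources used here give neither the strand setting nor the annotation release. Values of App, Junb, Kcnh7, Kcnd2, Kcnip4, Fgfr3, Cxcl10, Irf7, Islr, Doc2g and Mbp, which overlap another annotated gene, are therefore uncertain, as are those of the genes named for this in the text. The authors deposited raw read counts for 55385 Ensembl genes, which are whole numbers, and a log2 TPM table of 16120 genes, used only as an alternative. Symbols and positions came from GENCODE M21 on GRCm38 (55144 genes matched, and the rest held 0.00278% of counts), and promoter sequences from RefSeq (GRCm38.p6), where Sik1 had no entry.

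Counts were fitted in edgeR 4.0.16 (R 4.3.3) over all 12 libraries with TMM scaling, a mean for each genotype, filterByExpr and the robust quasi-likelihood test. P-values were adjusted by Benjamini-Hochberg over all genes tested, and a gene was called at an adjusted p under 0.05. The same fit was made on 10 libraries (16076 genes tested). The common biological coefficient of variation was 0.144 and 0.142. A count of 3 corresponded to 0.272 to 0.425 CPM. Libraries of a genotype differed beyond sampling noise (chi-square per degree of freedom 8.15 to 19.7), so each was counted once; this does not show that they came from separate animals. The interaction fit was also run on simulated counts with known changes in Kcnip3 KO-5xFAD only. That simulation held no libraries that go against their labels and no other tissue, so it does not cover these.

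The contrast, lists and alternatives were chosen with earlier results of these data known. Named genes were Kcnip3, Thy1, App, Trem2, Cst7, Gfap and Ttr as values, the 10 genes per direction with the smallest interaction p and a mean of at least 1 CPM in either fit, up to 3 genes of each list with the smallest p, and every called gene. Not all of them are printed, and some genes that the rule takes are not reported here. Dcx, Dusp1, Btg2, Egr1, Egr2, Junb, Arc, Nptx2, Itgax, Tyrobp, Clec7a, Cd74, H2-Ab1, Th, Doc2g, Gng4, Cdhr1, Oasl2, Irf7, Ifit3, Mbp, Eif3j2 and Pla2g4e, and list members given only as an estimate, were chosen after their values were seen. Alternatives were leaving out libraries, a replicate block, limma on the log2 TPM values, limma-voom (limma 3.58.1), DESeq2 1.42.0, a minimum of 50 counts in at least 3 libraries, all genes unfiltered, and scaling by library size or by DESeq2's factors. The labels give only a replicate number, and the main fit used no pairing.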

Additional observations from a re-analysis of the deposited data

Results flagged for a closer look

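Fabp7 is listed because it passed the interaction test in the fit of 10 libraries. It did not pass with all 12 (1.80, edgeR adjusted p = 0.43), and it was called in 5 of 24 ways of fitting. With 10 libraries the interaction was 1.99 on the log2 scale (edgeR adjusted p = 0.0417), and the Kcnip3 KO-5xFAD libraries of that fit stood at 62.9 and 73.8 CPM, above the range of 18.1 to 36.4 CPM in the others. The libraries left out of it, WT 3 and Kcnip3 KO-5xFAD 2, whose markers of the transgenes go against their labels, held 37.9 and 38.6 CPM.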

How the results depend on the processing

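The counts of calls depended on the libraries and on the test. For the interaction, the number of genes called higher was 1 without WT 3 and Kcnip3 KO-5xFAD 2, 1 when 5xFAD 2 was also left out, 144 with no filter and 2 with DESeq2, and the number called lower was 128 with no filter and 1 with DESeq2. With 10 libraries it was 0 higher without Kcnip3 KO 3 (Fabp7 1.96) and 1 lower with DESeq2. Without a filter the median degrees of freedom per gene, prior included, rose from 14.3 to 254000, and 263 of the 272 calls were genes of the filtered set. 5xFAD minus WT called 196 higher and 13 lower genes with 10 libraries, 146 and 2 when 5xFAD 2 was also left out, 13 lower when Kcnip3 KO 3 was, 202 higher with library size only, 1136 and 995 with no filter, 657 and 762 with DESeq2, and 80 and 158 with limma on log2 TPM. Kcnip3 KO-5xFAD minus Kcnip3 KO called 208 higher and 1 lower gene with 10 libraries, 157 and 3 when Kcnip3 KO 3 was also left out, 211 and 5 when 5xFAD 2 was, 419 and 302 with no filter, and 110.0 and 23 with DESeq2.

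Leaving out 1 library at a time gave 0 to 4 higher and 0 to 1 lower interaction calls from 12 libraries (4 without 5xFAD 1, 3 without Kcnip3 KO 2: Gm14325, Gm14326 and Gm14305; 1 without Kcnip3 KO-5xFAD 2: Fabp7; lower Gm12751 without Kcnip3 KO 1 and Gm12892 without Kcnip3 KO-5xFAD 3), and 0 to 7 higher and 0 to 1 lower from 10 (7 without Kcnip3 KO-5xFAD 3), with Fabp7 at 1.85 to 2.16. For 5xFAD minus WT the range was 1 to 939 higher and 0 to 1178 lower, with 1 and 0 without WT 1, 5xFAD 2 or 5xFAD 3, 12 and 1 without WT 3, 147 higher without WT 2, 143 and 89 without Kcnip3 KO-5xFAD 3, 168 lower without Kcnip3 KO-5xFAD 1, and the highest without 5xFAD 1. For Kcnip3 KO-5xFAD minus Kcnip3 KO it was 0 to 190.0 higher and 0 to 3 lower, the highest without Kcnip3 KO-5xFAD 2. Where 1 library was left in a group, it is assumed to vary like the others. The cause of these shifts was not tested.

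Of 93 named genes with a fold, 4 changed the sign of the interaction in some setting. The Trem2 interaction came to 0.04 with library size only and to 0.05 to 0.41 without WT 1 (0.23), WT 2 (0.22), Kcnip3 KO 3 (0.05), 5xFAD 2 (0.20) or Kcnip3 KO-5xFAD 2 (0.41), against a lowest value of -0.82 without WT 3, and the Tyrobp interaction to 0.09, 0.10, 0.13 and 0.28 without WT 1, WT 2, 5xFAD 2 or Kcnip3 KO-5xFAD 2, with a lowest value of -0.75 without WT 3. The Irf7 interaction came to -0.05 and the Ifit3 interaction to -0.24 without Kcnip3 KO-5xFAD 1, and to highest values of 1.34 and 1.15 without Kcnip3 KO-5xFAD 2. Over 2128 pairs of a gene and a setting, 2059 kept direction and side of the threshold.

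With the replicate number as a block, edgeR called 1 gene higher for the interaction (Eomes, 7.02, adjusted p = 0.0155), and in 10 libraries 0 (Fabp7 2.05, adjusted p = 0.0634). With that block 5xFAD minus WT called 632 higher and 602 lower, against 304 and 258 without it. Same-numbered libraries correlated at -0.34 to 0.26 in their deviations from group means, 6 of 18 pairs over 0.1, and 3 of 12 libraries matched their own number best. The median was -0.03, against 0.015 for pairs with other numbers. Whether same-numbered samples shared a batch or a day is not given and was not tested.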
